A study of Mus musculus with 4 samples.

Results

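B cells of the aortic wall were a small population of 220 cell barcodes among 25593 kept barcodes, found in 4 libraries of single cells from the mouse aorta made with droplets. A kept barcode had at least 500 detected genes and under 10% mitochondrial UMIs, a UMI being a molecular tag that counts each captured transcript once. A B cell was a kept barcode with at least 3 UMIs summed over Cd79a, Cd79b and Ms4a1 and with 0 UMIs of Cd3e, C1qa and Pecam1. Cd79a and Cd79b encode the signalling chains of the B cell receptor, Ms4a1 encodes CD20, and the excluded genes mark T cells, macrophages and endothelium. The cells were thus chosen by measured UMIs, and the levels of these 6 genes are no result. The rule gave 53 B cells in the arch library of the Smad4 mutant, 24 in the control arch, 79 in the mutant descending thoracic aorta and 64 in the control descending aorta.

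Each of the 4 groups was 1 library. Control mice carried CNC-SMC-Cre and the R26-tdT reporter, and the mutant mice, called cKO, carried CNC-SMC-Cre, R26-tdT and Smad4flox/flox. The labels name the driver but not the cells it acts in, and the series as a whole concerns smooth muscle cells, so B cells are not a stated target of the deletion. Mice were 16 to 20 weeks old, and the labels do not say how many animals entered a library. The 5′ kit was run on cells freed with collagenase after perfusion, strained and depleted of red cells. With 1 library per group, a difference between libraries has no replicate check, and intervals below are 95% intervals for counting error only. The arch libraries held 49407811 UMIs for the cKO and 98866674 for the control, and the descending libraries 50922575 and 50285593. The B cells had medians of 4794, 3474, 3759 and 3986.5 UMIs in the same order. The T cells used as a background class, 253, 248, 112 and 106 barcodes, had medians of 3760, 3615, 4735 and 5395.5.

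A B cell carries an antibody as its receptor, built from 1 heavy and 1 light chain. The variable (V) part of each chain comes from joining 1 of many genomic V segments to shorter segments, so cells of a single clone share their V segments. Naive B cells express the constant regions IgM and IgD from Ighm and Ighd. After activation a B cell can switch the constant region to IgG, IgA or IgE, and it can become an antibody-secreting plasma cell that makes the joining chain Jchain. In the vessel wall, B cells are known mainly from the adventitia and the fat around it, and the B-1 lineage is known in mice from body cavities and the tissues that line them.

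Because the 5′ kit reads the start of each transcript, the V segment of single cells was countable. A pair of V pairings recurred across cells, and their segments are printed here because the results below turn on them. Each line is the last 290 bases of the germline coding sequence, from the GENCODE M21 transcripts on GRCm38, and capitals mark the stretch from the last in-frame cysteine codon to the end of the segment, where joining starts.
Ighv2-6: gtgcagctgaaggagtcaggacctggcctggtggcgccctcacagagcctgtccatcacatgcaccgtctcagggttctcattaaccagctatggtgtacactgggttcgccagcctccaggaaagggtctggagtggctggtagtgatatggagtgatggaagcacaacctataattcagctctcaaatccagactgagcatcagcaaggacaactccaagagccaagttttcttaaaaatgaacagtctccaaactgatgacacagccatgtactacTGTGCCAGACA
Igkv10-96: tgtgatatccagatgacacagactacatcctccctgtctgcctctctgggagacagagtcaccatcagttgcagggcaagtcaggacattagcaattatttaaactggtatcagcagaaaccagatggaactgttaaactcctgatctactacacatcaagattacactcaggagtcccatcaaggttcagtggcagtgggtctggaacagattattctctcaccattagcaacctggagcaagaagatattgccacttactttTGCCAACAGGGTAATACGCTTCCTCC
Ighv11-2: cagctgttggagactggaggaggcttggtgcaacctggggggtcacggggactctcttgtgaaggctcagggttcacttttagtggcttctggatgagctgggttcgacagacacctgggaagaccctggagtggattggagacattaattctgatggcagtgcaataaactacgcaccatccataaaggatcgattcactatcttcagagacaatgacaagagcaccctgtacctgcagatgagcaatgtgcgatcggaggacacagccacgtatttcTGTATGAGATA
Igkv14-126: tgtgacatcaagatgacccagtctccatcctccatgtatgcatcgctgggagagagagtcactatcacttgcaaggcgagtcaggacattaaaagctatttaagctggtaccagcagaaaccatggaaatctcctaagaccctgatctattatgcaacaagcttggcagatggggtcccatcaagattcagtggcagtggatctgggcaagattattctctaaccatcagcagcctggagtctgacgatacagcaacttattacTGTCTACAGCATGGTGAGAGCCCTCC

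Ighv2-6 (ENSMUSG00000096670) lies at chr12:113716670-113717103 on the minus strand and Igkv10-96 (ENSMUSG00000094420) at chr6:68631963-68632442 on the minus strand. Ighv11-2 (ENSMUSG00000096108) lies at chr12:114048241-114048812 on the minus strand and Igkv14-126 (ENSMUSG00000094345) at chr6:67896172-67896642 on the plus strand. Each span covers the leader exon, its intron and the V exon. The nearest other segment differed from Ighv2-6 at 18 bases of 350 coding bases, from Igkv10-96 at 16 of 347, and from Igkv14-126 at 30 of 353. Ighv11-2 differed from Ighv11-1 at 4 of 353, so reads could be split between those 2 segments and an Ighv11-2 count is uncertain to that extent.

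The cKO arch had 0.907% B cells among kept barcodes (95% exact binomial interval 0.680 to 1.19) and the control arch 0.278% (0.178 to 0.413). In the descending aorta the share was 1.34% for the cKO (1.06 to 1.67) and 1.23% for the control (0.948 to 1.57). The control arch was the lowest of the 4, and its interval did not meet the others. T cells of the same libraries made up 4.33%, 2.87%, 1.90% and 2.04%. In the control arch 48.4% of the T cells had a UMI of Rag1 and 51.6% one of Dntt, genes of immature thymocytes, against 0% in the other libraries. Those cells are part of each control arch T cell value below, and what they contribute to it was not tested. A share also depends on how many other cells were kept, and the control arch had 8644 kept barcodes against 5206 to 5901 in the others. The exclusion genes removed 180 of 400 kept barcodes that had enough B cell marker UMIs, and 137 of these were removed by Pecam1 alone with a median of 1 Pecam1 UMI. A UMI of the endothelial genes Cdh5 or Egfl7 was found in 12 of the 220 B cells and in 10 of those 137 barcodes. With those barcodes allowed, the shares were 1.25%, 0.405%, 2.12% and 2.38%. The control arch stayed lowest, and the mutant and control descending libraries changed order. Just outside the rule, 3, 1, 2 and 3 barcodes held 2 marker UMIs, and just inside it 3, 0, 0 and 0 held 3. The median was 14, 23, 23 and 26 marker UMIs.

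**Figure D1:**
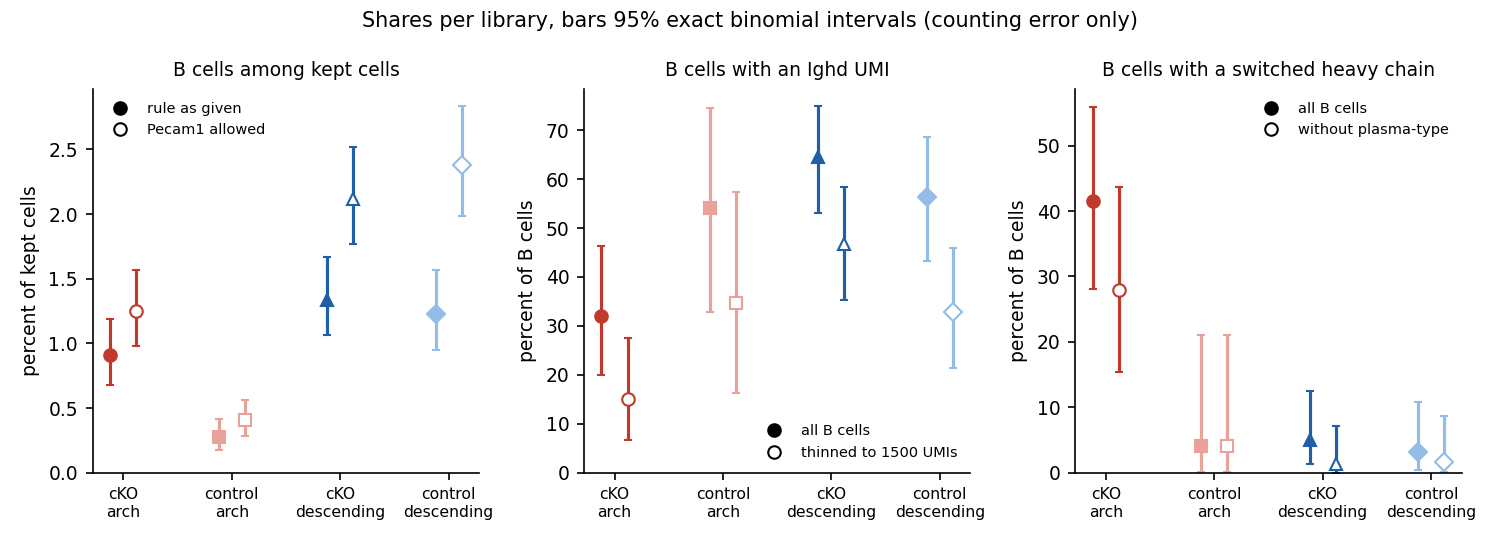
Shares in percent per library, with bars for 95% exact binomial intervals that cover counting error only: B cells among kept barcodes by the rule as given and with Pecam1 allowed, B cells with an Ighd UMI in full and after thinning to 1500 UMIs, and class-switched B cells with and without plasma-type cells. The control arch is lowest in the first panel (0.278% and 0.405%), and the cKO arch is highest in the third (41.5% and 27.9%).

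B cell genes that the rule did not use were detected in each library. Cd74, the invariant chain of MHC class II, had a UMI in 220 of 220 B cells. Ly6d was detected in 50, 21, 77 and 61 cells (mutant then control arch, followed by mutant then control descending aorta, the order of all such runs below), and the pan-leukocyte tetraspanin Cd37 in 40, 24, 78 and 63. Among B lineage transcription factors, Ebf1 was found in 31, 21, 73 and 59 cells, Pax5 in 25, 13, 32 and 23, Spib in 23, 10, 33 and 33 and the coactivator Pou2af1 in 27, 7, 44 and 33. The receptor Fcmr was found in 28, 18, 56 and 46 cells, the inhibitory receptor Cd22 in 25, 14, 43 and 29, the adaptor Bank1 in 32, 20, 67 and 51 and the kinase Blk in 22, 7, 48 and 40. Fcrla was found in 29, 13, 47 and 44 cells, Cd24a in 26, 10, 38 and 29, Cd72 in 23, 9, 27 and 22 and Ptprc, which encodes CD45, in 45, 18, 66 and 50. The plasmacytoid dendritic cell gene Siglech was at 0 UMIs in the 220 cells, and Rag2, Vpreb1, Igll1 and Dntt, which mark B cell precursors in bone marrow, were also at 0. Rag1 was found in 1 control arch cell.

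Some B cell barcodes held RNA of other cells. The smooth muscle gene Acta2 had a UMI in 171 of the 220. Barcodes with at least 10 UMIs over 13 other genes of smooth muscle, fibroblasts, endothelium and macrophages are called mixed below, and they numbered 3, 4, 5 and 4. They held 8.43%, 30.5%, 11.8% and 22.9% of all B cell UMIs of their library, so sums over the 24 control arch cells leaned most on them. Each comparison is therefore given also without mixed barcodes and without the plasma-type cells described next, a choice made after seeing the data, which left 40, 20, 70 and 59 cells. Between 66 and 99 barcode sequences were shared by pairs of libraries among all deposited barcodes, kept or not, and 7 of the B cells had such a barcode. Xist was detected in 47, 15, 64 and 49 B cells and the Y-linked Ddx3y in 1 control arch cell.

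The floxed gene was not lower in a way the depth could show. Smad4 had 14 UMIs in the cKO arch B cells and 7 in the control arch, or 38.7 and 70.3 CPM, UMIs scaled to a common total per library. The log2 difference was -0.91 with a counting interval from -2.27 to 0.69. In the descending aorta Smad4 had 23 and 22 UMIs, a log2 difference of -0.23 (-1.14 to 0.69). A feature named RFP was listed for the cKO arch library alone and had a UMI in 44 of its 53 B cells, 83.0%. The share was 67.6% in its T cells, 72.6% in macrophages, 88.3% in endothelium and 92.7% in smooth muscle. The highest count in a B cell was 9 UMIs, while T cells reached 151 and smooth muscle 790. Of 17 listed TGF-beta and Smad pathway genes, 4 reached the minimum used below for comparing the arch libraries. Skil, a repressor of Smad signalling, was higher in the cKO arch (log2 ratio 1.80), and Tgfb1 (-1.57) and Tgfbr2 (-1.22) were lower. Skil was also higher in T cells (2.05) and macrophages (1.77) of these libraries, while T cells had Tgfb1 at 0.87 and Tgfbr2 at 0.42. Without mixed or plasma-type cells Skil had 26 and 4 UMIs and Tgfbr2 29 and 15, both under the minimum. Tgfb1 was then at -1.33. In the descending aorta 0 of 3 passed 2-fold.

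Heavy chain use set the cKO arch apart from the other 3 libraries. A cell is called switched when it had at least 3 UMIs of Ighg1, Ighg2b, Ighg2c, Ighg3, Igha or Ighe and more of these than of Ighm and Ighd. Switched cells numbered 22 of 53 in the cKO arch, 41.5% (28.1 to 55.9). The control arch had 1 of 24, 4.17% (0.105 to 21.1). The descending aorta had 4 of 79 in the mutant, 5.06% (1.40 to 12.5), and 2 of 64 in the control, 3.13% (0.381 to 10.8). The interval of the cKO arch lay above the other 3. After thinning each cell to 1500 UMIs the shares were 30.2%, 0%, 3.90% and 1.64%.

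IgG2b and IgG2c made up most of the switched RNA in the cKO arch. Ighg2b had 6747 UMIs in 15 cKO arch cells, 0 in the control arch, 0 in the cKO descending aorta and 5 UMIs in 1 control descending cell. Ighg2c had 9133 UMIs in 17 cKO arch cells and 0, 0 and 1 UMI in the others. T cells of the cKO arch had a UMI of Ighg2b in 3.56% and of Ighg2c in 1.98%, with at most 2 UMIs a cell, whereas no T cell of the other libraries had one. Barcodes classed as macrophages there held up to 51 Ighg2b and 17 Ighg2c UMIs, neutrophils up to 101 and 2 and smooth muscle up to 11 and 9. Of the 12 switched cKO arch cells that were not plasma-type, 3 had exactly 3 switched UMIs and 9 had under 10, and the Ighg2b and Ighg2c counts of these 9 were within the range of those other classes. Igha, the IgA constant region, was found in 21, 0, 4 and 1 cells with 1233, 0, 1488 and 425 UMIs. In the cKO arch most Igha UMIs were in 1 cell, which held 1177. Ighg3 was found in 4, 1, 6 and 4 cells with 7, 7, 7 and 4 UMIs, Ighg1 in 0, 0, 1 and 1 cells and Ighe in 2, 0, 0 and 0. The most abundant constant region of a cell was Ighm in 28, 18, 59 and 51 cells, Ighd in 1, 5, 14 and 6, Ighg2b in 8 cKO arch cells and Ighg2c in 11.

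Ighm had a UMI in 35, 23, 73 and 56 B cells, or 66.0%, 95.8%, 92.4% and 87.5%. T cells had an Ighm UMI in 18.2%, 40.3%, 35.7% and 29.2% and macrophages in 40.6%, 69.8%, 68.6% and 53.6%, cell types that should lack it. A B cell with a few Ighm UMIs is thus not told apart from background by that detection. Ighd, the mark of mature naive cells, had a UMI in 17 of 53 cKO arch cells, 32.1% (19.9 to 46.3), and in 13 of 24 control arch cells, 54.2% (32.8 to 74.4). It had one in 51 of 79 cKO descending cells, 64.6% (53.0 to 75.0), and in 36 of 64 control descending cells, 56.3% (43.3 to 68.6). T cells had an Ighd UMI in 0.395%, 0.806%, 0.893% and 0%. The cKO arch was lowest, and its interval met those of both control libraries but not that of the cKO descending aorta. Thinned to 1500 UMIs the shares were 15.1%, 34.8%, 46.8% and 32.8%, and without mixed or plasma-type cells they were 40.0%, 45.0%, 68.6% and 59.3%.

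**Figure D2:**
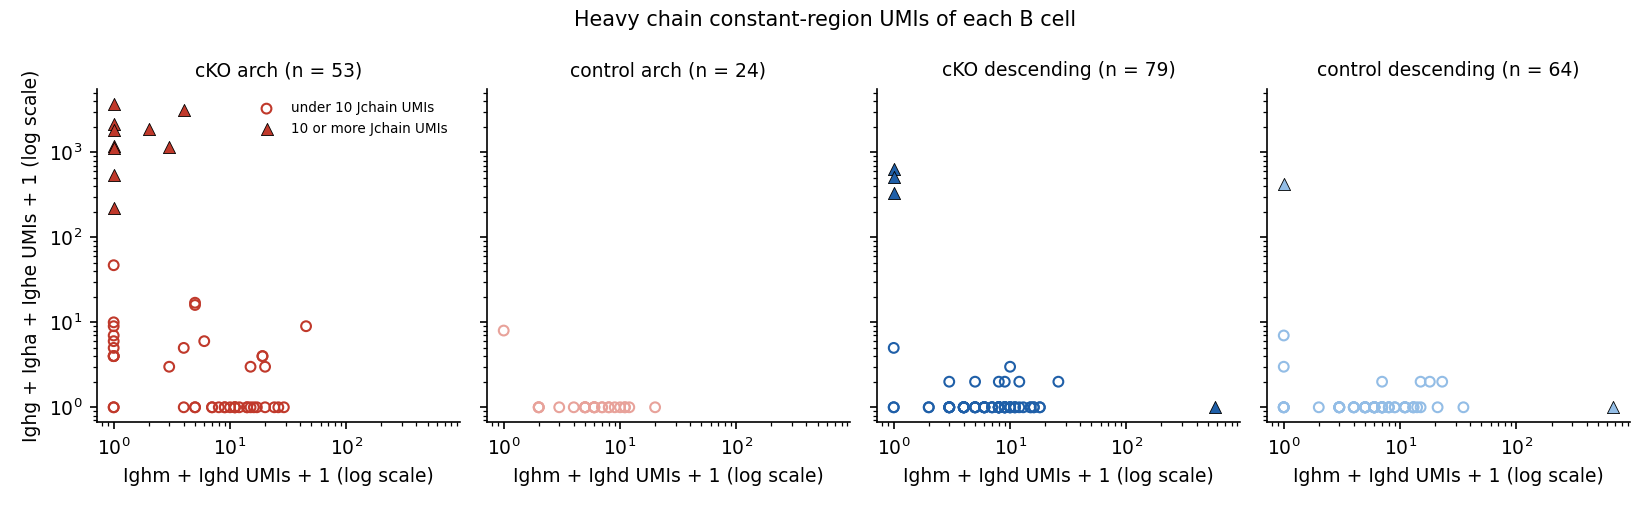
Each point is 1 B cell, with its Ighm and Ighd UMIs plus 1 on the horizontal axis and its IgG, IgA and IgE UMIs plus 1 on the vertical axis, both on log scales, in a panel for each library. Filled triangles are the 16 cells with at least 10 Jchain UMIs, and 10 of them are in the cKO arch panel.

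Plasma-type cells, those with at least 10 Jchain UMIs, numbered 10, 0, 4 and 2. That was 18.9% of B cells for the cKO arch (9.44 to 32.0) and 0 of 24 for the control arch, which allows up to 14.2%. For the descending aorta it was 5.06% in the mutant (1.40 to 12.5) and 3.13% in the control (0.381 to 10.8). The interval of the cKO arch met those of the other libraries, which alone does not settle whether the shares differ. With 1 library per group the difference in this share has no replicate check. The 16 cells had 32 to 1324 Jchain UMIs, and no other B cell had more than 5. They had a median of 16621.5 UMIs against 3863.5 in the other B cells, 14 of 16 were switched, 16 had Cd79a and 3 had Ms4a1. They held 39.9%, 0%, 22.2% and 17.3% of the B cell UMIs of their library. Without them, 12 of 43 cKO arch cells were still switched, 27.9% (15.3 to 43.7), against 1 of 24, 1 of 75 (1.33%) and 1 of 62 (1.61%).

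A single V pairing accounted for 11 B cells of the cKO arch. A V segment was called when it had at least 5 UMIs and at least 80% of the V UMIs of its chain. Both chains were called in 20, 11, 32 and 35 B cells. Ighv2-6 with Igkv10-96 was the call in 11 of the 20 cKO arch cells, 55.0% (31.5 to 76.9), and in 0 of 11, 0 of 32 and 0 of 35 in the other libraries. With a call at 2 UMIs there were 11 such cells and with a call at 10 there were 9. The 11 cells were switched, 6 with Ighg2b as the top constant region and 5 with Ighg2c.

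Of these 11 cells, 8 were plasma-type. Their Ighv2-6 UMIs ran from 238 to 6060 and their Igkv10-96 UMIs from 267 to 9249. In 4 of the 8, Ighg2b had 3174, 1863, 1139 and 534 UMIs and Ighg2c had 0. In the other 4, Ighg2c had 2175, 1854, 1118 and 223 UMIs and Ighg2b had 0. Among these 8 cells the pairing was thus found with either constant region, and in none with both. The other 3 cells had 5 or fewer Jchain UMIs and lower V counts, with 25, 7 and 5 Ighv2-6 UMIs and 172, 23 and 45 Igkv10-96 UMIs. Of these 3, 1 had 38 Ighg2c and 0 Ighg2b UMIs, and the other 2 held both, with 8 and 11 Ighg2b and 5 and 3 Ighg2c UMIs. T cells of the same library had at most 1 Ighv2-6 UMI and at most 5 Igkv10-96 UMIs, with either detected in 2.77% and 5.14%. Barcodes classed as macrophages there reached 74 and 147, so counts like those of the 3 cells also occurred outside B cells. The part of free RNA and of joined cells in those 3 barcodes was not tested.

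**Figure D3:**
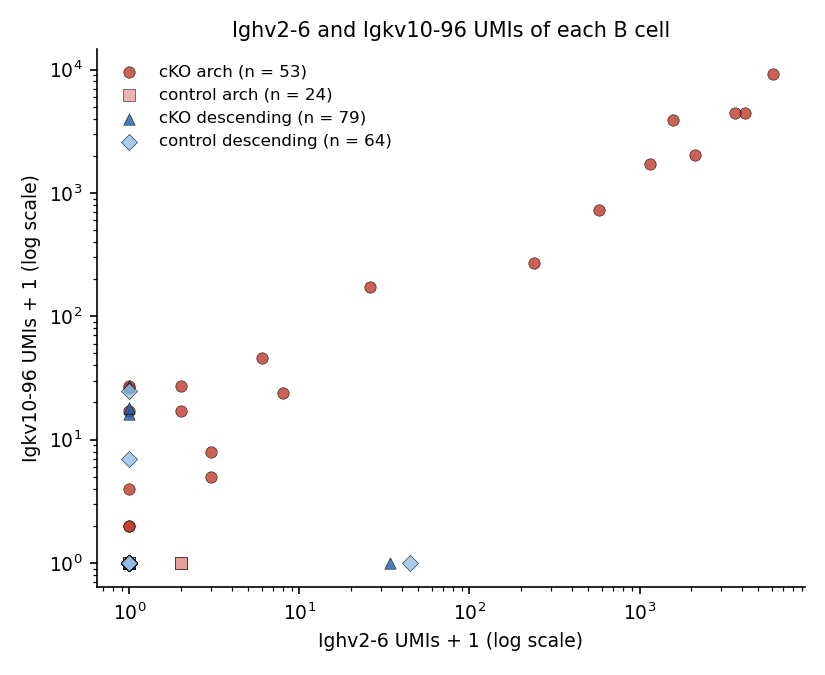
Each point is 1 B cell, with Ighv2-6 UMIs plus 1 on the horizontal axis and Igkv10-96 UMIs plus 1 on the vertical axis, both on log scales, with symbols by library. The 11 cKO arch cells with both segments called reach 6060 and 9249 UMIs, while no B cell of the other libraries has more than 44 Ighv2-6 UMIs or 26 Igkv10-96 UMIs.

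Other V segments were also counted in cells with the pairing. Igkv8-18 had a UMI in 11 of 11 cells with the pairing, summing to 226 UMIs beside 26991 of Igkv10-96, or 0.837 per 100. It had 0 in the 6 B cells that used Igkv10-96 without Ighv2-6, but these held only 125 Igkv10-96 UMIs together. Outside the pairing, Igkv8-18 also had 3 UMIs in a cKO arch plasma-type cell and 1 in a cKO descending one. Iglv1 had a UMI in 8 of the 11 cells with the pairing, and 3 to 22 UMIs in the plasma-type cells of the descending aorta. The files give no junction sequences, so whether the 11 cells derive from a single cell cannot be read from them. The pairing was also common among barcodes that the B cell rule left out. Of 17 kept cKO arch barcodes with at least 10 Jchain UMIs, 14 held at least 10 UMIs of each segment, and the 3 other libraries had 1, 5 and 2 such Jchain barcodes with 0 holding both. In the cKO arch 5 of the 17 had been removed by an exclusion gene, and 2 had under 3 marker UMIs.

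The remaining plasma-type cells had other pairings. In the cKO arch a cell with 1177 Igha UMIs used Ighv1-82 and Igkv15-103, and a cell with 3692 Ighg2c UMIs used Ighv1-55 and Igkv6-14. In the cKO descending aorta 3 IgA cells with 637, 514 and 336 Igha UMIs used Ighv1-72 with Igkv12-44, Ighv1-82 with Igkv6-23 and Ighv1-64 with Igkv2-109. The IgA cell of the control descending aorta, with 425 Igha UMIs, used Ighv1-22 with Igkv6-15. The other 2 plasma-type cells, with 573 and 678 Ighm UMIs, had Ighv11-2 and Igkv14-126 as top segments, the pairing printed above.

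Ighv11-2 with Igkv14-126 is known from mouse B-1a cells whose antibodies bind phosphatidylcholine. The pairing was called in 0 of 20 and 0 of 11 arch cells, in 2 of 32 cKO descending cells, 6.25% (0.766 to 20.8), and in 3 of 35 control descending cells, 8.57% (1.80 to 23.1). Taken as the top segment of each chain without the 80% requirement, it was found in 4 cKO descending and 5 control descending cells. These 9 cells had 18 to 3909 Ighv11-2 UMIs and 67 to 12994 Igkv14-126 UMIs. Ighm was their top constant region, Ighd had 0 or 1 UMI, and Cd5, the surface marker of B-1a cells, was at 0. The arch intervals reach beyond the descending shares, so a difference between regions was not detectable at these numbers. Outside these 2 pairings, repeats were few. Ighv3-6 with Igkv12-41 was called in 2 cKO arch cells and Ighv3-6 with Igkv2-137 in 2 cKO descending cells. The called cells held 9, 11, 30 and 33 different pairings.

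Most B cells used kappa light chains by their V segment. A lambda V segment was the call in 2 of 41, 3 of 20, 0 of 54 and 4 of 46 cells, which is 4.88%, 15.0%, 0% and 8.70%. Constant-region UMIs gave another picture. Of cells with at least 5 light constant UMIs and 90% of them from either kappa or lambda, 2 of 14, 3 of 3, 8 of 8 and 7 of 8 were lambda. Lambda constant-region UMIs were also present in 36 of 39, 17 of 17, 53 of 54 and 41 of 42 cells with a kappa V call, and cells with both Igkc and Iglc UMIs numbered 45, 15, 70 and 56. Iglc2 was detected in at most 0.893% of T cells. Light chain type by constant region was therefore at odds with the V call, and the V call is the one used here.

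Genes of follicular and naive B cells were detected in fewer cKO arch cells than in the other libraries. Fcer2a, which encodes the IgE receptor CD23, had a UMI in 6, 12, 47 and 33 cells, or 11.3%, 50%, 59.5% and 51.6%, against at most 0.893% of T cells. Its level was 22.1, 211, 254 and 271 CPM. The complement regulator Cd55 was found in 19, 21, 70 and 56 cells, or 35.8%, 87.5%, 88.6% and 87.5%, at 71.9, 522, 429 and 412 CPM. T cells had a Cd55 UMI in 3.16%, 3.63%, 15.2% and 27.4%. For Fcer2a the T cells were at background in each library. Cd55 was lower in the T cells of both arch libraries than in those of the descending ones. The control arch T cells include the cells with Rag1 or Dntt UMIs.

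Other genes of the list were also found in the smallest share of cells in the cKO arch. The lymph node homing receptor Ccr7 was found in 18, 19, 48 and 39 cells, the egress receptor S1pr1 in 8, 9, 38 and 36, and the quiescence factor Klf2 in 31, 21, 71 and 58. T cells had Ccr7 in 7.91%, 15.7%, 44.6% and 45.3%, and Klf2 in 32.4%, 28.2%, 67.9% and 61.3%. Both arch libraries were thus low there, the control arch with its Rag1 and Dntt cells included. The transcription factors Bach2, Foxp1 and Satb1 were found in 10, 14, 35 and 29, in 34, 23, 68 and 56, and in 8, 13, 29 and 25 cells. Vpreb3, a gene of transitional and naive B cells, was found in 6, 11, 36 and 26 cells and in 0 T cells. Cells thinned to 1500 UMIs gave the cKO arch the lowest share for 12 of the 14 list genes, with list medians of 7.55%, 26.1%, 27.9% and 26.2%. Over all 6129 genes found in at least 5% of thinned cells of a library the cKO arch alone was lowest for 35.1%, and it was so for 9 of 16 identity, 12 of 20 receptor signalling and 7 of 11 class II genes, so low detection there was not limited to follicular genes. Without mixed or plasma-type cells it was lowest for 11 of 14, beside 28.2% of all genes, and Fcer2a was found in 12.5%, 50%, 64.3% and 52.5%.

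Genes listed for memory and age-associated B cells ran the other way for several members. The integrin chain Itgb1 was found in 41, 10, 32 and 25 cells, or 77.4%, 41.7%, 40.5% and 39.1%, with T cells at 73.9%, 56.0%, 58.0% and 61.3%. Zbtb20, a transcription factor of memory and plasma cells, was found in 35, 10, 37 and 28 cells. Fcrl5, which is high in atypical memory cells, was found in 14, 3, 6 and 6 cells, or 26.4%, 12.5%, 7.59% and 9.38%, and in 0 T cells. The costimulator Cd86 was found in 21, 3, 15 and 20 cells, with at most 5.66% of T cells. The chemokine receptor Cxcr3 was found in 10, 0, 2 and 1 cells, the transcription factor Tbx21 in 3, 0, 0 and 0 and Itgax in 3, 0, 0 and 1. T cells of each library expressed Cxcr3 in 13.3% to 42.5%. After thinning, the cKO arch had the highest share for 5 of the 6 list genes found in at least 5% of cells of a library. It alone was highest for 17.2% of all genes, and also for 8 of 9 plasma cell and 9 of 15 activation genes.

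**Figure D4:**
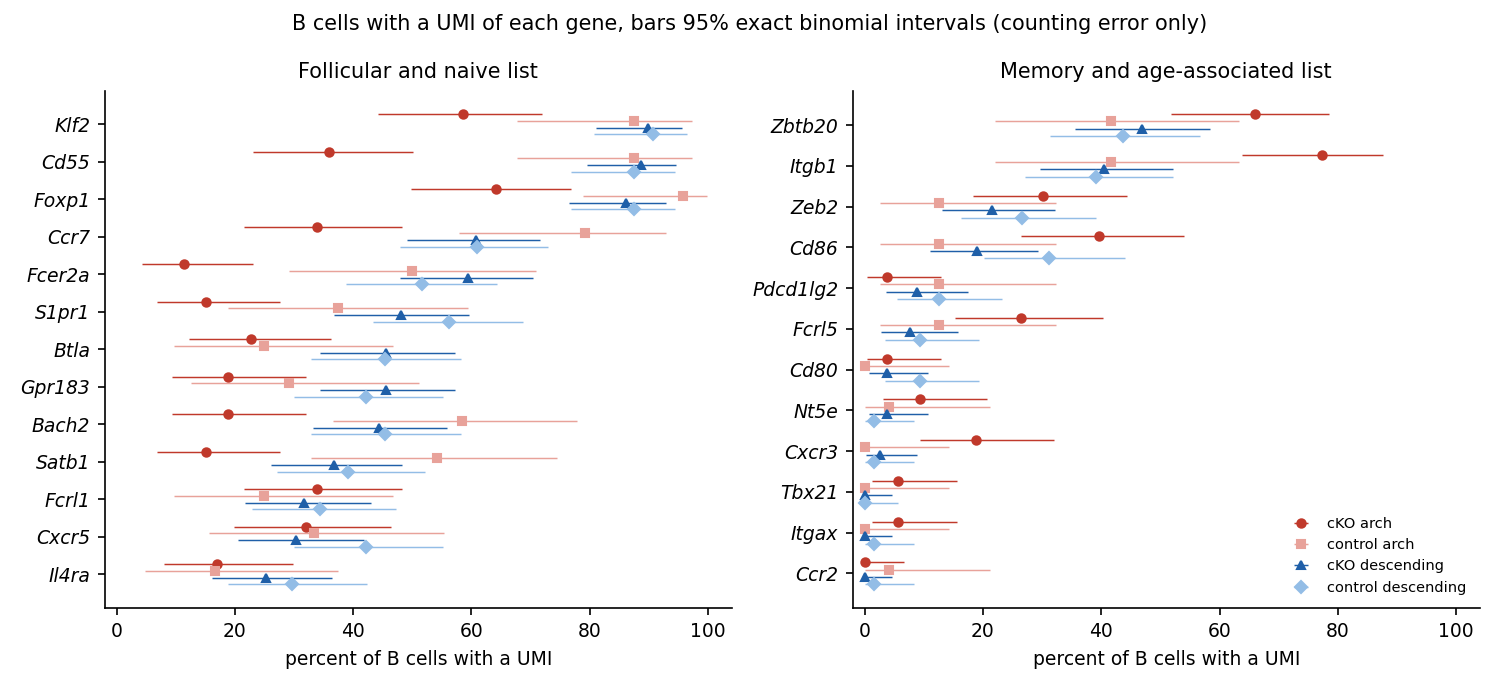
Percent of B cells with a UMI of each gene in each library, with bars for 95% exact binomial intervals, for 13 genes of the follicular and naive list and for 12 genes of the memory and age-associated list. Fcer2a and Cd55 are at 11.3% and 35.8% in the cKO arch and at 50% or more in the other 3 libraries, while Itgb1 is at 77.4% in the cKO arch and 39.1% to 41.7% elsewhere.

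Other subset genes were sparse. The germinal centre genes Rgs13 and Gcsam were at 0, and Bcl6 was found in 5, 3, 16 and 10. Fas, which marks activated and germinal centre cells, was found in 10, 1, 4 and 5. Of genes listed for B-1 cells, Bhlhe41 was found in 11, 0, 12 and 11 cells and Zbtb32 in 9, 2, 10 and 12, and Cd5 in 1, 1, 3 and 2. Of marginal zone genes, the complement receptor Cr2 was found in 7, 7, 31 and 22 cells, Pld4 in 23, 2, 31 and 27 and Mzb1 in 42, 12, 56 and 51. The proliferation gene Mki67 was found in 4, 0, 4 and 4 cells, and Il10 in 1, 0, 1 and 1. The BAFF receptor gene Tnfrsf13c was found in 15, 7, 32 and 31 cells and Tnfrsf13b, which encodes TACI, in 21, 11, 40 and 33.

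Comparisons of summed UMIs in CPM asked how B cells of the cKO differed from control cells in each region, and how arch cells differed from descending cells in each genotype. A gene was compared when both libraries together held at least 50 UMIs, and it was counted when the ratio was at least 2-fold. With 1 library a side, that is a size and not a test. Values below are log2 ratios of CPM with a prior of 0.5 UMI.

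In the arch, 998 genes were compared between cKO and control, of which 77 were at least 2-fold higher (7.72%) and 190 at least 2-fold lower (19%). Immunoglobulin genes took 22.8% of the cKO arch B cell UMIs against 1.52% in the control arch. The median log2 ratio of the 998 genes was -0.39, scaling by the median of ratios moved each value by 0.627, and the split then became 175 higher and 52 lower. Totals without immunoglobulin genes gave 126 higher and 88 lower. Without mixed or plasma-type cells the median was -0.08, and 54 of 576 genes were higher (9.38%) and 48 lower (8.33%).

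Plasma cell genes were higher in the cKO arch, with 7 of 7 compared list members past 2-fold. Jchain had 4552 UMIs against 0 for the control arch, at least 418-fold higher with 3 counts taken as the control floor. Creld2, an endoplasmic reticulum chaperone, had 190 and 3 UMIs (log2 ratio 3.91), and Edem2, which acts in disposal of misfolded proteins, had 56 and 0. Without mixed or plasma-type cells these 3 genes had 5 and 0, 9 and 1, and 7 and 0 UMIs, so few of these UMIs were outside the cells left out. Members past 2-fold also included the plasma cell regulators Xbp1 (2.57) and Irf4 (2.64) and the chaperone Mzb1 (2.18). With mixed and plasma-type cells left out, 0 of 1 compared list members passed 2-fold. Mzb1 was then at 0.76, and Irf4 had 25 and 2 UMIs, under the minimum. The pericyte gene Rgs5 (129 and 1 UMIs, 4.57) and Tmem176b (91 and 1, 4.07) had 4 and 1, and 6 and 0 UMIs in the remaining cells.

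Ly6c2, a surface protein of monocytes and plasma cells, had 2501 and 0 UMIs, at least 230-fold higher. It kept 223 and 0 UMIs without mixed or plasma-type cells, but macrophages of the same libraries had 1326 and 0. Among the lowest ratios of the arch were the matrix and stromal genes Dcn (15 and 230 UMIs, -5.75), Gsn (19 and 272, -5.67), Cd9 (15 and 41, -3.28), Timp3 (25 and 62, -3.15) and Itga8 (21 and 50, -3.09). Without the mixed barcodes and plasma-type cells Dcn had 9 and 5 UMIs, Gsn 11 and 7, Cd9 10 and 10, Timp3 13 and 1 and Itga8 10 and 6, so the control arch counts sat mostly in mixed barcodes.

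Follicular genes were lower in the cKO arch for 5 of 5 compared list members, with a median log2 ratio of -2.55. Fcer2a, with 8 and 21 UMIs, did not reach the minimum. Cd55 had 26 and 52 UMIs, -2.85 (-3.60 to -2.15), and Ccr7 had 34 and 55 (-2.55). Foxp1 had 71 and 74 UMIs (-1.92) and Klf2 97 and 77 (-1.53). Under the median-of-ratios scaling Klf2 was at -0.90, under 2-fold, and Foxp1 at -1.29. In the cells left without mixed or plasma-type ones 3 of 4 were lower by at least 2-fold, with Cd55 at -2.49, Ccr7 at -1.88 and Foxp1 at -1.48. In T cells Cd55 was at -0.50. Macrophages had Cd55 at -1.89, lower by more than 2-fold as in the B cells, Foxp1 at -0.70 and Ccr7 at 4.57.

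Identity and antigen presentation genes were lower by less. Of 14 compared identity genes 5 were lower and 0 higher (median -0.69), and without mixed or plasma-type cells 0 of 12 passed 2-fold (median -0.48). Of 9 class II presentation genes 4 were lower, and 0 of 9 without those cells. H2-Eb1, the beta chain of the class II molecule I-E, had 525 and 348 UMIs (-1.27, and -0.64 under the median-of-ratios scaling), and Cd74 was at -0.84. Of 3 memory list genes compared, 1 was higher, which was the constant region Ighg2c. Leaving out mixed and plasma-type cells 2 of 3 were higher, Ighg2c with 69 and 0 UMIs and Zbtb20 with 114 and 10 (2.02). Immediate early genes, which rise within minutes of stimulation or tissue dissociation, were higher for 1 of 15 and lower for 5. Fosb was the higher one, with 194 and 22 UMIs (1.25), and without mixed or plasma-type cells it was at 2.78. T cells had Fosb at 2.84 and macrophages at 0.65, so the difference passed 2-fold in T cells but not in macrophages. Other genes past 2-fold among the remaining cells were Fcer1g (55 and 1 UMIs, 3.78), with T cells at 3.41, Ly6a (293 and 22, 2.27), with T cells at 2.57, Txn1 (75 and 5, 2.35) and Tob2 (57 and 4, 2.24). Il2rg, the common cytokine receptor chain, had 22 and 38 UMIs (-2.21).

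In the descending aorta the genotypes differed less. Of 2546 compared genes 67 were at least 2-fold higher in the cKO (2.63%) and 93 lower (3.65%), together 6.28%, and without mixed or plasma-type cells 14 of 1728 (0.81%) and 47 (2.72%). Scaling by the median of ratios turned the split to 86 higher and 68 lower. Follicular genes gave 0 of 14 past 2-fold in either direction (median -0.10), with Fcer2a at -0.10, Cd55 at 0.06 and Klf2 at -0.11. Identity genes gave 0 of 16. Plasma cell genes gave 5 of 8 higher, and without mixed or plasma-type cells 0 of 2. Mzb1, a chaperone of antibody assembly, had 962 and 262 UMIs (1.58), and 192 and 186 without those cells. Igha had 1488 and 425 UMIs, and 1 and 0 without them.

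The highest ratios were Prnp (67 and 3 UMIs, 3.98), Glipr1 (155 and 8, 3.90), the sodium channel gene Scn7a (67 and 4, 3.62), Derl3 (80 and 10, 2.65), Creld2 (138 and 22, 2.33) and Igfbp6 (252 and 44, 2.21). With mixed and plasma-type cells left out Prnp had 2 and 0 UMIs, Glipr1 2 and 0, Scn7a 2 and 1, Derl3 0 and 0, Creld2 7 and 9 and Igfbp6 4 and 4. The lowest were Rgs1 (0 and 65), Gdf10 (4 and 58, -3.99), Mfap4 (9 and 68, -3.14), Il11ra1 (10 and 62, -2.86), Cygb (10 and 50, -2.56) and Atf3 (14 and 62, -2.40). Among cells that were neither mixed nor plasma-type Rgs1 had 0 and 0 UMIs, Gdf10 0 and 1, Mfap4 3 and 3, Il11ra1 2 and 4 and Cygb 7 and 6. The stress factor Atf3 stayed past 2-fold there, with 4 and 46 UMIs (-3.52).

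H2-Eb1 was lower in the cKO in the descending aorta as well, with 309 and 680 UMIs, or 623 and 1677 CPM, and a log2 ratio of -1.43 (-1.63 to -1.23). After removal of mixed and plasma-type cells it was at -1.20 in the descending aorta and -0.67 in the arch, the latter under 2-fold. T cells, which had 35 H2-Eb1 UMIs in the control descending library, had it at -3.78 there, and macrophages at 0.03. The other class II genes of the descending aorta, 10 of 11, stayed under 2-fold, and Cd74 was at -0.12. Cr2 had 71 and 28 UMIs, 1.04 (0.40 to 1.74), and Fasn, the fatty acid synthase, had 15 and 71 among cells without mixed or plasma-type ones (-2.36), with T cells at -2.30 and macrophages at -2.21. Of 960 genes compared in both regions, 13 were higher and 11 lower in the cKO in both. In the cells left without mixed or plasma-type ones 43 and 2 of 560 genes were higher, with 0 in both. There 45 and 7 were lower, with 3 in both, S100a6 (-1.17 and -1.07) and the V segments Igkv4-91 and Iglv1. The arch and descending comparisons used separate libraries.

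Between regions of the control, 11.4% of the compared genes differed by at least 2-fold. Of 1451 compared genes 91 were higher in the arch (6.27%) and 75 lower (5.17%), with a median-of-ratios shift of -0.186 that gave 54 and 106. Follicular genes gave 1 of 12 higher, Ccr7 with 55 and 92 UMIs (1.29), and Fcer2a was at -0.34 and Cd55 at 0.35. Cxcr4, the receptor for CXCL12, had 24 and 38 UMIs (1.37), with T cells at 1.74 and macrophages at 0.55. The nuclease gene Pld4 had 3 and 63 UMIs (-2.15). Among the highest ratios were the stromal genes Timp3 (62 and 19, 3.71), Eln (70 and 32, 3.14), Lum (38 and 20, 2.94), Cpe (46 and 26, 2.84) and Fstl1 (32 and 20, 2.69), and in the cells without mixed or plasma-type ones these had 1 and 5, 6 and 8, 0 and 1, 10 and 5, and 4 and 11 UMIs. The lowest were Jchain (0 and 2260), Rgs1 (0 and 65), Cygb (0 and 50), Lgals3 (3 and 145, -3.35), Rassf4 (2 and 56, -2.47) and Pafah1b3 (3 and 72, -2.35). Of these, Jchain kept 0 and 2 UMIs without mixed or plasma-type cells, Rgs1 0 and 0, Cygb 0 and 6 and Lgals3 2 and 19 (-0.87), while Rassf4 kept 0 and 49 (-4.54) and Pafah1b3 3 and 55 (-1.90). T cells of the same libraries had Rassf4 at -4.24 and Pafah1b3 at 1.62, and macrophages had them at -0.06 and 0.04. Leaving out mixed and plasma-type cells 32 of 963 were higher (3.32%) and 41 lower (4.26%), among them Ly6a with 22 and 348 UMIs (-1.86).

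In the cKO, B cells of the arch differed from those of the descending aorta in 409 of 2134 compared genes, 105 higher (4.92%) and 304 lower (14.2%). The median-of-ratios shift was 0.157, and totals without immunoglobulin genes gave 149 and 204. With mixed and plasma-type cells left out 88 of 1303 were higher (6.75%) and 129 lower (9.9%). Follicular genes were lower for 11 of 13 compared (median -1.40), and for 7 of 13 without those cells (median -1.01). Fcer2a had 8 and 126 UMIs, -3.44 (-4.76 to -2.50), and -3.37 without those cells. Cd55 had 26 and 213 UMIs (-2.55), S1pr1 9 and 53 (-2.04) and Klf2 97 and 417 (-1.64). T cells of the same libraries had Cd55 at -1.95, S1pr1 at -2.40 and Klf2 at -2.20, so these 3 genes were lower in arch T cells too, while Fcer2a was at background in T cells.

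Activation genes were higher in the cKO arch for 8 of 12 compared list members and lower for 0 (median 1.30). Nr4a1, induced by antigen receptor signalling, had 102 and 25 UMIs (2.46) and Nfkbid 65 and 12 (2.85). T cells had these at 3.03 and 2.98, and macrophages had Nr4a1 at 2.58, so both genes differed between these libraries in other cell types as well. Memory list genes were higher for 3 of 5 (median 1.25), namely Ighg2c, Itgb1 and Cd86. Itgb1 had 132 and 76 UMIs (1.25, and 1.68 without mixed or plasma-type cells), with T cells at 0.23 and macrophages at -0.14. Cd86 was at 1.56, with T cells at 1.86. Interferon-stimulated genes were higher for 4 of 5, with Isg15 at 71 and 6 UMIs (3.92), of which 9 and 3 were left without mixed or plasma-type cells. H2-DMb1, which helps load class II molecules, had 22 and 116 UMIs (-1.92), while H2-Eb1 was at 1.22. Homing receptors moved both ways, 4 of 12 higher and 5 lower.

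The highest ratios in that comparison were Ly6c2 (2501 and 15 UMIs, 7.79), with macrophages at 8.19, Postn (261 and 8, 5.40), Isg15, Col4a1 (168 and 17, 3.72), Rgs5 (129 and 19, 3.19) and Gem (60 and 9, 3.13). Among cells that were neither mixed nor plasma-type Ly6c2 had 223 and 6 UMIs (5.92), Postn 12 and 2, Col4a1 2 and 2, Gem 21 and 7 and Rgs5 4 and 18, the last turned to -1.23. The lowest were Sfrp4 (0 and 98), Igfbp6 (1 and 252, -6.94), Scn7a (0 and 67), Fndc1 (0 and 56), C3 (5 and 132, -4.13) and Tomm6 (6 and 147, -4.05). In the same remaining cells Sfrp4 had 0 and 3 UMIs, Igfbp6 1 and 4, Scn7a 0 and 2, Fndc1 0 and 4 and C3 2 and 7, and Tomm6 had 4 and 106 (-3.75). Tomm6 was at -3.53 in T cells and -3.33 in macrophages, and the cKO arch file listed 28693 features against 32285 in the others. Among the remaining cells Fcer1g had 55 and 2 UMIs (5.28), with T cells at 0.94, and H2-Q7 had 96 and 26 (2.68).

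A test with replication was possible within libraries. B cells with an Ighd UMI (17, 13, 51 and 36 cells) were compared with unswitched cells that had an Ighm UMI and no Ighd UMI (13, 10, 22 and 21 cells), summed per library and fitted with library as a block. Cells with an Ighd UMI had medians of 3406, 4203, 3350 and 3830 UMIs and those without it 4776, 2767.5, 8024.5 and 6803, so the cells without Ighd were deeper in 3 of 4 libraries. The edgeR quasi-likelihood test over 1671 genes gave 3 genes higher with IgD at an adjusted p under 0.05 (0.18%) and 0 lower (0%), with 177 genes at an unadjusted p under 0.05. The 3 genes were collagen and stromal genes, Col1a1 (log2 4.36, SE 0.36, adjusted p = 0.00101), Col3a1 (4.87, SE 0.59, adjusted p = 0.00823) and Gsn (4.20, adjusted p = 0.0307). They are genes of fibroblasts. Once the mixed barcodes were left out Gsn was at 0.46 (edgeR adjusted p = 0.573), and Col1a1 and Col3a1 no longer had enough UMIs to be tested.

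Without the mixed barcodes 5 of 1288 genes were higher with IgD (0.388%), and no gene was lower. Fcer2a was higher by a log2 of 2.29 (SE 0.35, edgeR adjusted p = 0.0144), Neurl3 by 2.65 (adjusted p = 0.0397), Dusp2 by 1.79, Pxk by 1.63 and Dmxl1 by 1.62. With plasma-type cells left out as well, 1 of 1305 was called (0.0766%), Fcer2a at 2.23 (edgeR adjusted p = 0.027). In the full set Fcer2a was at 107 CPM with IgD and 0 without it for the cKO arch, and at 261 and 148 for the control arch. The descending values were 476 and 103 in the mutant and 540 and 58.9 in the control. It was higher with IgD in 4 of 4 libraries, with a log2 difference of 2.28 (SE 0.43, edgeR adjusted p = 0.113) over all cells. It was also called with no filter beyond 1 UMI (edgeR adjusted p = 5.43e-07) and without the control arch (adjusted p = 0.0378). It was not called with cells thinned to 1500 UMIs, where the log2 difference was 1.42 (adjusted p = 0.295). Nor was it called without the cKO arch (edgeR adjusted p = 0.138), the cKO descending (0.654) or the control descending library (0.771). The same held with no library block (0.472), DESeq2 size factors (0.117), Pecam1 allowed (0.0595) and plasma-type cells alone left out (0.117). The DESeq2 Wald test gave an adjusted p of 0.0758. Cd55 had 228 and 47.7, 603 and 356, 693 and 299, and 647 and 250 CPM, a log2 difference of 1.16 (SE 0.25, edgeR adjusted p = 0.174), and 0.34 in thinned cells (adjusted p = 0.733). The 12 follicular genes tested had a median log2 difference of 0.81, beside 0.01 over all tested genes. Bach2 was at 1.34 with an edgeR adjusted p of 0.367, and Mzb1 at -1.02 was lower with IgD in 4 of 4 libraries, with the same adjusted p.

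**Figure D5:**
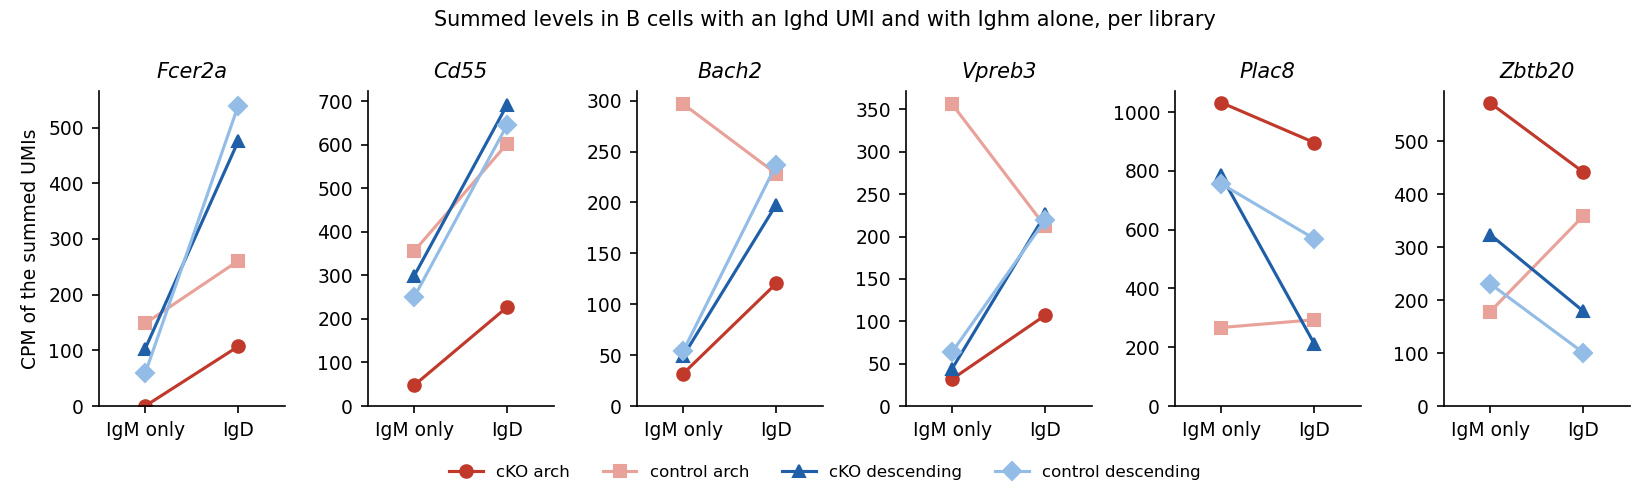
CPM of 6 genes in the summed B cells with an Ighd UMI and in those with Ighm but no Ighd UMI, joined by a line for each of the 4 libraries. Fcer2a and Cd55 are higher with IgD in 4 of 4 libraries, from 107 to 540 CPM and from 228 to 693 CPM in the IgD sums.

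With cells holding at least 5 UMIs of other-lineage genes left out, 20 of 744 genes were higher (2.69%) and 11 lower (1.48%), although the control arch IgD sum was then 1 cell. The higher genes by that edgeR test included Fcer2a (2.97, adjusted p = 0.000192), Bach2 (2.42), Satb1 (2.38), Vpreb3 (1.82), Ccr7 (1.73), Cr2 (1.63) and Cd55 (1.55). The lower ones included Pdia4, a protein disulphide isomerase (-2.44), the cytoskeletal genes Ahnak (-1.48) and Vim (-1.13), Plac8 (-1.41), Zbtb20 (-1.32) and Mzb1 (-1.20).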

How the data were processed

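Droplet single-cell RNA of 4 libraries was analysed, 1 library for each genotype and region. The deposited files hold raw UMI counts per gene and barcode, made with Cell Ranger 6.1.1 and mm10 per the submitters' processing notes, while the file headers name 6.1.2. Which annotation release was used is not stated. Of the features, 28693 in the cKO arch and 32285 elsewhere, 27734 shared identifiers were used, since unequal annotations can lower a gene in a single library. Ambient RNA was not removed and no doublet caller was applied in the main values (Scrublet, in scanpy 1.11.5, marked 17 members and was an alternative).

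Kept barcodes had 500 genes and under 10% mitochondrial UMIs. UMIs were summed over members and set against the total of shared genes, with a prior of 0.5 UMI. Shares have exact Clopper-Pearson intervals, CPM exact Poisson intervals and ratios exact conditional intervals, at 95%, for counting error only. A count of 0 was set at 3 counts for bounds. Genes with 50 UMIs over both libraries were tested at 2-fold. The IgD split was fitted with edgeR 4.0.16 (R 4.3.3) by the quasi-likelihood test on summed counts with library as a block and Benjamini-Hochberg adjustment over all tested genes, and with DESeq2 1.42.0 as an alternative. Each library gave both sums, so the pairing comes from the design. T cells had at least 2 Cd3e UMIs. Thinning drew 1500 UMIs a cell. Named genes were the 6 highest and 6 lowest ratios at 50 CPM in either library (without unnamed, mitochondrial, ribosomal protein, haemoglobin and immunoglobulin genes and genes 10-fold higher in another cell class), up to 4 members of each gene list furthest from 0, and the identity and chain genes. Further genes in the text were chosen after their values were seen, among them those ranked without mixed or plasma-type cells. Some genes that this rule or a list names are not reported here by name, while counts and medians include them. There were 25 lists with 318 genes. The members, the lists and this report's questions were chosen with earlier results of these data known. Lists with 0 tested genes in a comparison are not given. V segments were matched by identifier to GENCODE M21. Scripts ran in Python 3.11.15 with numpy 2.4.6, scipy 1.17.1, pandas 2.3.3 and matplotlib 3.10.9, and both the ratios and the split were tested on simulated data.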

Additional observations from a re-analysis of the deposited data

Results flagged for a closer look

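Gsn, an actin-severing protein that is abundant in fibroblasts, differed between genotypes in opposite directions by region. Its log2 ratio of cKO over control was -5.66 in the arch (19 and 272 UMIs) and 1.35 in the descending aorta (1130 and 362 UMIs). Without mixed or plasma-type cells the arch counts were 11 and 7. Cd44, an adhesion receptor, had a log2 ratio of 1.22 in the arch (46 and 5 UMIs) and -1.20 in the descending aorta (27 and 51 UMIs). Without other-lineage RNA the arch value was -0.68, so the opposite directions did not hold there. With 1 library per group neither difference between regions was tested.

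Among barcodes left out of the B cells by Pecam1 alone, 5 in the cKO arch carried Ighv2-6 with Igkv10-96. They are outside the B cell rule.

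The RFP feature, listed for the cKO arch library alone, had a UMI in 83.0% of its B cells, 67.6% of its T cells, 72.6% of macrophages and 92.7% of smooth muscle cells. No control library lists it, so its background in a control was not analysed here.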

How the results depend on the processing

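Genes past 2-fold, 267, 160, 166 and 409 in the 4 comparisons (cKO against control in the arch and descending aorta, then arch against descending in control and cKO), were 569, 327, 368 and 773 at a minimum of 30 UMIs, and 119, 75, 60 and 181 at 100. With Pecam1 allowed they were 452, 318, 362 and 858, and without mixed or plasma-type cells 102, 61, 73 and 217. Without plasma-type cells the first 3 were 127, 94 and 110. Without other-lineage RNA the arch comparison gave 147 and the control regions 86. Without the highest Scrublet scores the descending comparison gave 84 and the control regions 103, and without mixed barcodes the latter gave 84. The cause was not tested beyond fewer or more genes and cells entering.

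B cell shares (mutant then control arch, mutant then control descending) were 0.479%, 0.0925%, 1.02% and 0.845% without other-lineage RNA, and 1.25%, 2.12% and 2.38% with Pecam1 allowed in all but the control arch. Thinned, the descending shares were 1.88% and 2.30%, and with 1000 genes and under 5% mitochondrial UMIs the cKO descending share was 1.67%. Thinned Ighd shares were 15.1%, 46.8% and 32.8% in all but the control arch, which was at 12.5% without other-lineage RNA. Switched shares were 27.9% and 27.5% in the cKO arch without plasma-type cells and without mixed ones too, 0% in the control arch thinned, and 1.33% and 1.39% in the cKO descending aorta without plasma-type cells and without high Scrublet scores. Lambda shares were 0% thinned and 40.0% (2 of 5 cells) without plasma-type cells in the cKO arch, 15.0%, 0% and 8.70% by V call in the other 3 libraries, and 100% in the control descending aorta under 6 settings.

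In the IgD split, with library as the block and pairing, 3 genes were higher and 0 lower. No replicate block gave 0 and 0 (131 at an unadjusted p under 0.05), thinning 0, 2 Ighd UMIs 0, Pecam1 allowed 0, no filter 118 and 58, no other-lineage RNA 20 and 11, no mixed barcodes 5, no mixed or plasma-type cells 1 and the DESeq2 Wald test 5. Leaving out each library in turn gave 0 to 14 higher and 0 to 3 lower. It gave 14 without the cKO arch, 6 without the control arch, 1 without the cKO descending and 0 without the control descending library.

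Directions turned as follows. With Pecam1 allowed, list medians of other lineages in the descending comparison became 1.39, of heavy chains and plasma cell genes between control regions 0.17 and 0.10, and Isg15 in the arch -0.12 and Jchain between control regions 0.97. Without mixed barcodes the heavy chain median became 0.33, Egr1 in the arch 1.61 and Rgs5 between cKO regions -1.71. Without high Scrublet scores other lineages between control regions became -3.15, Egr1 1.61, Mzb1 and Irf4 in the descending comparison -0.10 and -0.037, Lum between control regions -3.15, and Rgs5 -1.94. Without plasma-type cells the marginal zone median between cKO regions became 0.13, Mzb1 -0.14 and Irf4 -0.007. Without both kinds these were 0.16, -0.11 and -0.011, with Egr1 at 1.81 and Rgs5 at -1.23. Without other-lineage RNA Cd44 and Egr1 in the arch became -0.68 and 1.57. The cause was not tested.

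Other reported list medians and named genes past 2-fold kept their direction where at least 20 UMIs were left. With fewer, others turned as well: without mixed or plasma-type cells the descending values of Creld2, Igfbp6 and Cygb became -0.49, -0.15 and 0.06, and Timp3 in the arch 1.74. The 24 control arch cells, with 99536 UMIs, limit both arch comparisons.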
